A study of Mus musculus with 12 samples.

Results

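The matrix metalloproteinases (MMPs) and their inhibitors were followed in the ventricular wall of mice that lacked the complex II assembly factor Sdhaf4 in muscle. The set held 10 genes, chosen by name from the 43686 rows of the gene table: the proteases Mmp2, Mmp3, Mmp11, Mmp14 and Mmp15, the tissue inhibitors of metalloproteinases Timp1, Timp2, Timp3 and Timp4, and the procollagen peptidase Adamts2. Each of the 10 names had 1 row, and 10 of 10 passed the filter on low counts, as did 17155 rows in all.

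Poly-A RNA of ventricle was sequenced from 6 wild-type (WT) and 6 mutant (KO) libraries, of mice that the labels give as C57BL/6 and 2 months old. The study's text gives a C57BL/6J background and states the age differently in different places. Animals of both groups carried 2 floxed Sdhaf4 alleles (Sdhaf4 fl/fl), and the KO animals, labelled Sdhaf4-/-, also carried a Ckmm-Cre transgene that WT littermates lacked. Ckmm-Cre is driven by the muscle creatine kinase promoter, and the study used it to inactivate Sdhaf4 in cardiac and skeletal muscle. Whether fibroblasts, endothelial cells or leukocytes of the KO heart kept Sdhaf4 was not measured here. A heart without Cre served as WT, and the set held no Cre-only control, so Cre and the loss of Sdhaf4 cannot be told apart.

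MMPs are zinc endopeptidases that cut collagens, proteoglycans and other proteins around cells, and most are made as proenzymes that need activation. TIMPs are small secreted proteins that bind the active site of MMPs, and Timp3 also holds to the matrix and inhibits several ADAM and ADAMTS proteases. In the heart, fibroblasts are a main source of many of these genes, and they take part in the turnover of interstitial collagen in a remodelling ventricle. Messenger RNA does not report activation or inhibition of the enzymes.

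Library totals ran from 23747014 to 27159228 counts in WT and from 26542930 to 31393393 in KO. Sdhaf4, the targeted gene, stood at 14.3 to 30.3 CPM (counts scaled to library size by the TMM method) in WT and at 2.25 to 2.73 CPM in KO, with no overlap (log2 fold change -3.39, SE 0.16, adjusted p = 1.95e-10, edgeR's quasi-likelihood test), and the lowest WT value was that of WT6. Cardiomyocyte markers summed to at least 42733 CPM in each library, while the skeletal muscle myosins Myh1, Myh2 and Myh4 were too low to be tested. Acta1, from the same list of skeletal muscle markers, stood at 81.0 to 268 CPM in WT and 620 to 1921 CPM in KO. The library KO3 lay nearest to WT: over the 1755 rows past both thresholds of the study, its median position was 0.171 of the way from the KO mean to the WT mean, against -0.0942 to -0.0140 in the other KO libraries. Values without KO3 and without WT6 are given where they move a call.

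Of the 10 genes, 7 were higher in KO, 2 were lower and 1 was not called at an adjusted p of 0.05. Over all rows tested, 25.6% were called higher and 25.5% lower, so 51.1% were called in one direction or the other. The median log2 fold change was 0.88 over the 10 genes and 0.002 over all rows. The genes that rose were Mmp2, Mmp3, Mmp14, Timp1, Timp2, Timp3 and Adamts2, and in each of these 7 all KO libraries lay above all WT libraries, as they did in 14.9% of rows. Groups without overlap, in either direction, made up 30.1% of rows. Mmp11 and Mmp15 fell with overlap between the groups, and Timp4 was not called. Under the study's stricter rule, an adjusted p under 0.005 with a log2 fold change beyond 1 in either direction, 4 genes passed (Mmp2, Mmp3, Timp1 and Adamts2), beside 10.2% of all rows in either direction and 5.36% in the direction of KO. As this is whole tissue, more cells of a type and more RNA per cell cannot be told apart for any of these genes.

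**Figure D1:**
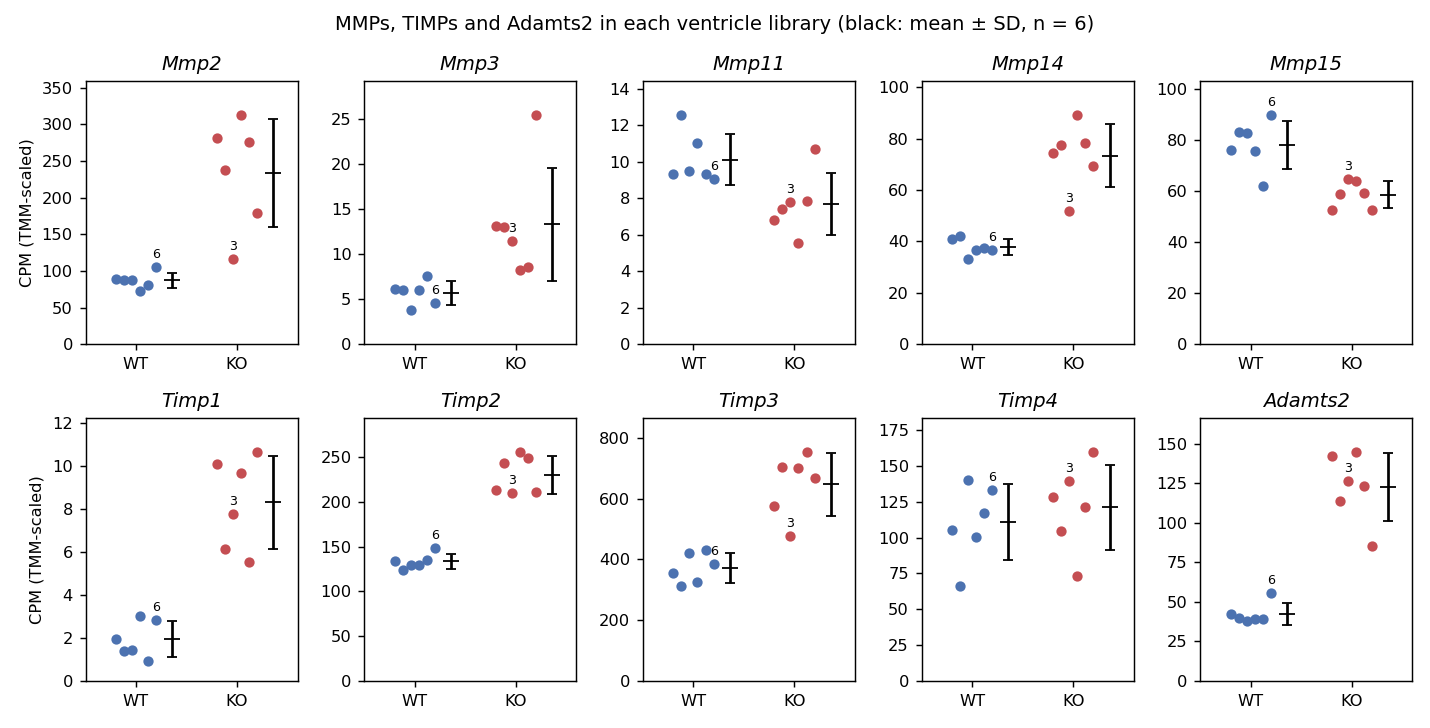
CPM (TMM-scaled, y axis starting at 0) of the 10 genes in each of 6 WT (blue) and 6 KO (red) libraries, with black bars for the mean ± SD and the numbers 3 and 6 marking KO3 and WT6. The red points lie above every blue point for Mmp2, Mmp3, Mmp14, Timp1, Timp2, Timp3 and Adamts2, and KO3 is the lowest red point for Mmp2 (117 CPM) and Mmp14 (51.8 CPM).

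Mmp2 and Mmp14, gelatinase A and the membrane-type protease known to activate pro-MMP2 at the cell surface, rose together. Mmp2 (MGP_C57BL6NJ_G0034432, chromosome 8, 97609424 to 97637355, plus strand) had a lowest, median and highest value of 73.1, 87.2 and 105 CPM in WT and of 117, 257 and 312 CPM in KO. The KO libraries spread widely, with a coefficient of variation of 31.4% against 12.1% in WT, and KO3 was the KO library nearest to WT. The mean went from 87.1 ± 10.5 to 234 ± 73.3 CPM (SD, n = 6 each), a 2.68-fold rise (log2 1.42, SE 0.21, 95% interval 0.96 to 1.89, adjusted p = 1.55e-04 by edgeR's quasi-likelihood test). Without KO3 the log2 fold change was 1.56.

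Mmp14 (MGP_C57BL6NJ_G0021711, chromosome 14, 50836333 to 50846840, plus strand) had a lowest, median and highest value of 33.3, 37.1 and 42.0 CPM in WT and of 51.8, 76.1 and 89.1 CPM in KO. Its groups did not overlap, and KO3 was again the lowest KO library. The rise was 1.94-fold (log2 0.96, SE 0.10, 95% interval 0.74 to 1.18, adjusted p = 1.91e-06 by edgeR's quasi-likelihood test), just under the log2 fold change of 1 in the stricter rule. Without KO3 it was 1.04 on the log2 scale (adjusted p = 3.15e-09), which passed that rule.

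Mmp3, stromelysin-1, which cuts many matrix proteins and can activate other pro-MMPs, rose from a low level. Mmp3 (MGP_C57BL6NJ_G0034815, chromosome 9, 4469008 to 4480331, plus strand) had a lowest, median and highest value of 3.78, 5.98 and 7.53 CPM in WT and of 8.25, 12.2 and 25.4 CPM in KO, on 96 to 704 counts a library. KO6 was far above the other KO libraries, whose highest value was 13.1 CPM, and the gap between the highest WT and the lowest KO library was small. The rise was 2.34-fold (log2 1.23, SE 0.27, 95% interval 0.65 to 1.81, adjusted p = 1.82e-03 by edgeR's quasi-likelihood test). Without KO6 the log2 fold change was 0.94 (adjusted p = 2.96e-04), and without WT6 it was 1.17 (adjusted p = 5.68e-03). Either one took Mmp3 out of the stricter rule while the call at 0.05 held.

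Mmp11 and Mmp15 moved the other way. Mmp11, stromelysin-3, is an MMP that furin-type proteases activate inside the cell. Mmp11 (MGP_C57BL6NJ_G0017766, chromosome 10, 78816877 to 78826157, minus strand) had a lowest, median and highest value of 9.06, 9.39 and 12.5 CPM in WT and of 5.53, 7.60 and 10.7 CPM in KO. KO6 lay above 4 WT libraries, and WT2, at 12.5 CPM, was the highest WT library. The KO mean was 0.758 of the WT mean (log2 -0.40, SE 0.14, 95% interval -0.69 to -0.11, adjusted p = 2.04e-02 by edgeR's quasi-likelihood test), and without WT2 the gene was not called (log2 -0.33, adjusted p = 0.0571).

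Mmp15 is a membrane-type MMP like Mmp14. Mmp15 (MGP_C57BL6NJ_G0034481, chromosome 8, 100364945 to 100389970, plus strand) had a lowest, median and highest value of 62.0, 79.2 and 89.6 CPM in WT and of 52.6, 59.0 and 64.6 CPM in KO. The groups met only at WT5, the lowest WT library, which lay below KO3 and KO4. The KO mean was 0.750 of the WT mean (log2 -0.41, SE 0.08, 95% interval -0.58 to -0.25, adjusted p = 3.35e-04 by edgeR's quasi-likelihood test). Both membrane-type genes of the set thus changed, Mmp14 upward and Mmp15 downward, with 95% intervals that do not meet.

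The stretches upstream of Mmp3 and Mmp14 are shown because these genes were both higher in KO and carry different short motifs. The sequences are the 250 bases before the RefSeq transcript start in assembly GRCm38.p6, which is another assembly than that of the table's identifiers, and neither window meets an annotated exon. Capitals mark matches on either strand to the AP-1 motif TGANTCA, the TATA box TATAAA, the hypoxia-inducible factor core ACGTG and the GC box GGGCGG. Mmp3 is at chr9:7445572-7445821 on the plus strand and Mmp14 at chr14:54431348-54431597 on the plus strand.
Mmp3: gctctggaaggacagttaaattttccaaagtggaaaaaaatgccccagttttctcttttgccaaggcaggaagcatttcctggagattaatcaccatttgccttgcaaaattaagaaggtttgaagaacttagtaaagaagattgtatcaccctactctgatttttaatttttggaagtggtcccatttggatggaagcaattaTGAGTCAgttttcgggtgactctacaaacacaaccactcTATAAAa
Mmp14: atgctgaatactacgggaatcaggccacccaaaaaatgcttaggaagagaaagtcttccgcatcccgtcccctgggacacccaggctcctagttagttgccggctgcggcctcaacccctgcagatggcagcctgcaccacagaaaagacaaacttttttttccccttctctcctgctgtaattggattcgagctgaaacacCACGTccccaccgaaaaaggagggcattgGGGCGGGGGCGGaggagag

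Positions are counted upstream from the transcript start, with the base before it as -1, and name the leftmost base of a match. The Mmp3 window held an AP-1 match at -46, a motif found in 6.75% of the 32851 windows of the same length, and a TATA match at -7, found in 12.4%. Mmp14 held a pair of GC boxes at -19 and -13 and a core match on the opposite strand at -48, which occur in 32.7% and 16.6% of windows. The 2 windows also differed in base composition, with 37.6% G and C for Mmp3 and 55.2% for Mmp14, against a median of 52.4% over all windows. These matches are letters in a window, and no binding was measured.

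Among the inhibitors, 3 of 4 TIMPs rose and Timp4 was not called, with a median log2 fold change of 0.79. Timp1 (MGP_C57BL6NJ_G0036105, chromosome X, 16184043 to 16188612, plus strand), the inducible member of the family, had a lowest, median and highest value of 0.931, 1.70 and 3.02 CPM in WT and of 5.51, 8.70 and 10.6 CPM in KO. The groups stood well apart, although WT rested on 23 to 76 counts a library and KO on 164 to 314. The mean went from 1.93 ± 0.836 to 8.30 ± 2.15 CPM, a 4.29-fold rise and the largest of the 10 genes (log2 2.10, SE 0.26, 95% interval 1.55 to 2.65, adjusted p = 7.18e-06 by edgeR's quasi-likelihood test).

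Timp2, which in a complex with MMP14 takes part in the activation of pro-MMP2 as well as inhibiting the active enzyme, rose with little spread. Timp2 (MGP_C57BL6NJ_G0019856, chromosome 11, 126371136 to 126441159, minus strand) had a lowest, median and highest value of 124, 132 and 149 CPM in WT and of 210, 229 and 256 CPM in KO. Its coefficients of variation, 6.30% in WT and 9.26% in KO, were the lowest of the 10 genes in WT and the second lowest in KO after Mmp15. The rise was 1.73-fold (log2 0.79, SE 0.06, 95% interval 0.65 to 0.92, adjusted p = 2.78e-08 by edgeR's quasi-likelihood test).

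Timp3, the matrix-bound inhibitor, rose by a like amount. Timp3 (MGP_C57BL6NJ_G0018009, chromosome 10, 90202983 to 90252212, plus strand) had a lowest, median and highest value of 313, 371 and 430 CPM in WT and of 477, 685 and 754 CPM in KO. KO3 was the lowest KO library and still lay above the highest WT library. The rise was 1.74-fold (log2 0.80, SE 0.11, 95% interval 0.57 to 1.03, adjusted p = 2.15e-05 by edgeR's quasi-likelihood test).

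Timp4 (MGP_C57BL6NJ_G0031586, chromosome 6, 120854201 to 120864557, minus strand), a TIMP known for its expression in the heart, overlapped across nearly its whole range. Its lowest, median and highest values were 66.5, 112 and 140 CPM in WT and 73.0, 125 and 160 CPM in KO. The means were 111 ± 26.5 and 121 ± 29.9 CPM, and the log2 fold change was 0.13 (SE 0.21, adjusted p = 0.628 by edgeR's quasi-likelihood test). The 95% interval of -0.32 to 0.59 leaves room for a change of either sign, and it lies below the point estimates of the other 3 TIMPs. Its coefficient of variation was 24% in WT and 24.7% in KO.

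The windows upstream of Timp1 and Timp4 are shown as those of the TIMP with the largest rise and of the TIMP that was not called. They are the same kind of RefSeq window in GRCm38.p6, with the same motifs in capitals. Timp1 is at chrX:20869916-20870165 on the plus strand and Timp4 at chr6:115252206-115252455 on the minus strand, and neither meets an annotated exon.
Timp1: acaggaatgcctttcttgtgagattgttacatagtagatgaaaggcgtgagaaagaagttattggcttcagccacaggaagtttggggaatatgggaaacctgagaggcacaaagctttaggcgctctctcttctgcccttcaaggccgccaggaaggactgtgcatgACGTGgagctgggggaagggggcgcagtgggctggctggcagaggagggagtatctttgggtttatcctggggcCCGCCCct
Timp4: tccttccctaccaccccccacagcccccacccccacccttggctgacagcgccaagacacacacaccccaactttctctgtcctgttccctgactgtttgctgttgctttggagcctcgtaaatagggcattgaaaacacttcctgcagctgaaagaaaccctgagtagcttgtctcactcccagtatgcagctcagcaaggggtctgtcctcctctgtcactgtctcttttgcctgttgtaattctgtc

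Timp1 held a hypoxia-inducible factor core match at -82 and a GC box on the opposite strand at -8. The Timp4 window held none of the capitalised motifs, with 53.6% G and C against 54.4% for Timp1. Of the 9 genes with a window (all but Mmp2), 7 had a GC box, which occurs in 32.7% of all windows. They were Mmp11, Mmp14, Mmp15, Timp1, Timp2, Timp3 and Adamts2, which takes in both genes that rose and genes that fell. The windows of Mmp15, Timp2, Timp3 and Adamts2 meet an annotated exon of their own gene. ETS letters (AGGAAG, in 29.5% of windows) occurred upstream of Mmp3, Mmp14, Timp1, Timp3 and Timp4, RUNX letters (TGTGGT, 14.1%) upstream of Mmp14 and C/EBP letters (TTGCNNAA, 9.56%) upstream of Mmp3. STAT (TTCNNNGAA), SMAD (GTCTAGAC) and NF-kB (GGANTTTCC) letters were found in 0 of the 9 windows, and in 7.02%, 0.17% and 1.07% of all windows.

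Adamts2, the peptidase that removes the amino-terminal propeptide of fibrillar procollagens, rose. Adamts2 (MGP_C57BL6NJ_G0018640, chromosome 11, 51253944 to 51466739, plus strand) had a lowest, median and highest value of 37.9, 39.6 and 55.7 CPM in WT and of 85.2, 125 and 145 CPM in KO. WT6 stood above the other WT libraries, which reached 42.2 CPM, and KO6 was the lowest KO library. The rise was 2.90-fold (log2 1.54, SE 0.13, 95% interval 1.26 to 1.82, adjusted p = 4.12e-07 by edgeR's quasi-likelihood test), and 1.63 on the log2 scale without WT6.

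**Figure D2:**
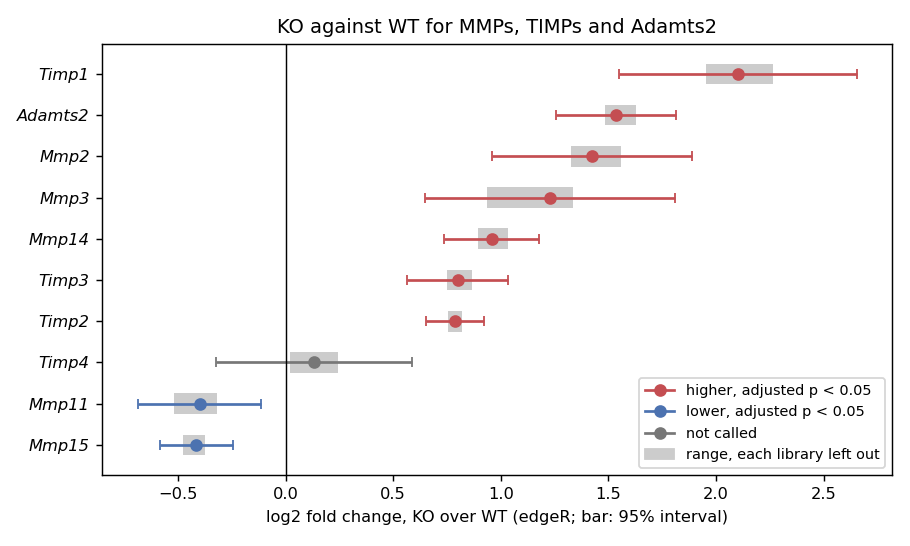
Log2 fold change of KO over WT for the 10 genes (points, with 95% intervals as lines) and the range of the estimate when each of the 12 libraries was left out in turn (grey boxes). Estimates run from -0.41 for Mmp15 to 2.10 for Timp1, and the interval of Timp4 alone crosses 0.

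Some of these genes share ground with others in the table, and whether counting took strand into account is not given. Timp1, Timp3 and Timp4 lie within the synapsin genes Syn1, Syn3 and Syn2 on the opposite strand. Syn3 was counted at 28.4 CPM in WT and 47.5 CPM in KO (log2 0.74, adjusted p = 4.09e-04, edgeR's quasi-likelihood test), which is small beside Timp3. Syn2 went from 6.67 to 11 CPM (log2 0.73, adjusted p = 3.73e-03, the same test), while Syn1 stood at 0.346 and 0.527 CPM and was not called (adjusted p = 0.262). Whole gene spans were compared here, and overlap of exons was not examined. Where exons of a TIMP and its synapsin partner overlap, their reads cannot be told apart without strand. BC100451, on the same strand as Timp2, stayed under 0.5 CPM, the rows that overlap Adamts2 held nearly no counts, and Mmp2, Mmp3, Mmp11, Mmp14 and Mmp15 overlapped no other row.

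Levels between genes were compared per length, with the FPKM (fragments per kilobase of gene and unit of library size) that the authors deposited. In WT, Timp3 stood apart at 163 ± 19.99 FPKM (SD, n = 6). Timp2 (40.4 ± 3.0), Timp4 (34.0 ± 8.13), Mmp14 (29.7 ± 2.77) and Mmp2 (28.7 ± 3.96 FPKM) followed, and in this run the range of each gene overlapped that of the next. Mmp15 (18 ± 2.46) and Adamts2 (16.3 ± 2.89 FPKM) overlapped each other, Mmp11 stood at 8.73 ± 1.26 FPKM, and Mmp3 (3.15 ± 0.704) and Timp1 (2.25 ± 0.987 FPKM) overlapped at the bottom.

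In KO the order changed below Timp3, which stayed first at 285 ± 49.0 FPKM. Mmp2 came next at 77.4 ± 25.8 FPKM, with Timp2 (69.9 ± 7.90), Mmp14 (57.9 ± 11), Adamts2 (47.4 ± 9.17) and Timp4 (37.2 ± 8.53 FPKM) after it, each overlapping the next. A lower run of Mmp15 (13.5 ± 1.24), Timp1 (9.67 ± 2.52), Mmp3 (7.35 ± 3.34) and Mmp11 (6.61 ± 1.34 FPKM) also overlapped from neighbour to neighbour. Timp1 thus had the lowest mean of the 10 genes in WT. In KO its range (6.49 to 12.1 FPKM) overlapped those of Mmp3 (4.73 to 13.8) and Mmp11 (4.92 to 8.98 FPKM). It met the range of Mmp15 (11.8 to 15.1 FPKM) only at its upper end. For 6 of the 10 genes the length behind the FPKM was shorter than the length given in the table, and with the table's length the order in WT was Timp3, Timp2, Mmp2, Timp4, Mmp15, Mmp14, Adamts2, Mmp11, Mmp3 and Timp1.

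**Figure D3:**
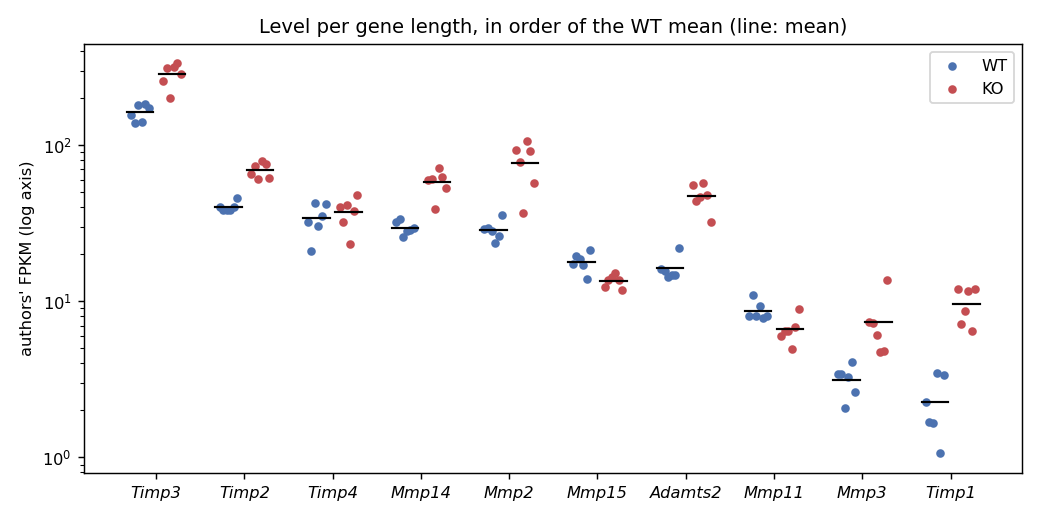
FPKM (log axis) of the 10 genes in each WT (blue) and KO (red) library, in order of the WT mean, with lines at group means. Timp3 lies above the other genes in both groups, and Timp1 moves from 2.25 FPKM in WT to 9.67 FPKM in KO.

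As a share of the summed FPKM of the 4 TIMPs, Timp3 held 68.0% ± 2.07 in WT and 70.5% ± 3.65 in KO (SD, n = 6). Timp2 held 17.0% ± 1.71 and 17.5% ± 1.47. Timp1 went from 0.958% ± 0.441 to 2.46% ± 0.720, and Timp4 from 14.1% ± 2.05 to 9.51% ± 2.93. For Timp4 the libraries ran from 10.4% to 16.1% in WT and from 5.37% to 13.3% in KO, so the ranges overlap, and shares were given no test. Summed over the family, the TIMPs ran from 201 to 266 FPKM in WT and from 312 to 455 in KO, and the 5 MMPs from 80.9 to 96.8 and from 103 to 203. The ratio of the TIMP sum to the MMP sum was 2.74 ± 0.433 in WT (2.07 to 3.22) and 2.53 ± 0.371 in KO (2.09 to 3.03), so the ranges overlapped almost fully while both sums were higher in each KO library than in any WT library. The size of the ratio rests on the lengths behind the FPKM, which for Timp3 is 2279 bases against 4722 in the table. It was not computed with the table's lengths.

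The extremes within a group did not fall on the same library for every gene. KO4 was the highest KO library for Mmp2, Mmp14, Timp2 and Adamts2 and the lowest for Mmp3, Mmp11 and Timp4. KO6 was the highest for Mmp3, Mmp11, Timp1 and Timp4 and the lowest for Mmp15 and Adamts2. KO3 was the lowest for Mmp2, Mmp14, Timp2 and Timp3, though it was not the lowest for Mmp3, Timp1 or Adamts2. No single library was the highest or the lowest for all 7 genes that rose.

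The nearest profile to each gene was sought among the annotated rows tested that were not in the set. It was the one with the smallest root mean square difference of centred log2 CPM over the 12 libraries, as a description of likeness and with no test. Adamts2 lay nearest to Pcolce (0.135), which enhances the removal of the other, carboxy-terminal propeptide of procollagen. Mmp2 lay nearest to Col4a4 (0.160), a chain of basement membrane collagen, and Mmp14 to Ptprb (0.134), an endothelial receptor phosphatase. Timp2 lay nearest to the spectrin gene Sptan1 (0.0750), Timp3 to Mxd4 (0.110) and Timp1 to Ace (0.402), the angiotensin-converting enzyme. The remaining nearest rows were Atxn10 for Mmp3 (0.279), Eif4ebp1 for Mmp11 (0.118), Rnpep for Mmp15 (0.103) and Spock2 for Timp4 (0.212). Within the set, Timp2 and Timp3 were each other's nearest member (0.154), and so were Mmp11 and Mmp15 (0.294). The centring kept the difference between KO and WT, so genes with like fold changes lie near each other by this measure. Nearness need not hold within a group: WT6 was the highest WT library for Mmp15 and the lowest for Mmp11. KO6 was the highest KO library for Mmp11 and the lowest for Mmp15.

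Other genes of the pathway were taken by function, and Mmp1a, Mmp10 and Lrp1 were not analysed here. Of 18 further MMPs, 9 were tested, and 3 were higher, 1 was lower and 5 were not called (median log2 fold change 0.27). Over all rows tested, 25.6% were higher and 25.5% lower. Mmp23 rose from 4.35 ± 0.454 to 12 ± 3.10 CPM (log2 1.47, adjusted p = 7.55e-07, edgeR's quasi-likelihood test). Mmp28, epilysin, rose from 13.9 ± 1.56 to 19.4 ± 1.11 CPM (log2 0.48, adjusted p = 6.44e-05, the same test). Mmp19 rose from 3.48 ± 0.411 to 6.77 ± 0.550 CPM (log2 0.96, adjusted p = 2.20e-06, the same test), but it overlaps another expressed row, so its change is uncertain. The 1 gene that fell was the collagenase Mmp13, from 1.28 ± 0.537 to 0.306 ± 0.159 CPM (log2 -2.03, adjusted p = 4.35e-04, the same test), named here after its values were seen. Its groups overlapped, at 0.364 to 1.97 CPM in WT and 0.112 to 0.546 CPM in KO, on at most 50 counts a library. Gelatinase B, Mmp9, stood under 2 CPM in each library and was not called (0.326 ± 0.372 and 0.727 ± 0.632 CPM, adjusted p = 0.203).

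Of 18 further ADAMTS genes, 15 were tested, and 7 were higher, 1 was lower and 7 were not called (median 0.51). The shares over all rows were 25.6% higher and 25.5% lower. Adamts8 rose from 0.699 ± 0.332 to 5.79 ± 0.755 CPM (log2 3.04, adjusted p = 5.88e-08, edgeR's quasi-likelihood test), with no overlap between the groups. Adamts20 rose from 0.273 ± 0.133 to 1.88 ± 0.700 CPM (log2 2.76, adjusted p = 4.32e-06, the same test). Adamts6 rose from 4.09 ± 0.497 to 7.90 ± 1.32 CPM (log2 0.95, adjusted p = 9.73e-06, the same test), and without WT6 it passed the stricter rule (log2 1.02, adjusted p = 8.56e-06). These 3 genes were low in WT, at 5.04 CPM or less in each library. Adamts7 fell from 21.2 ± 2.76 to 9.79 ± 1.55 CPM (log2 -1.11, adjusted p = 3.25e-07, the same test), and it overlaps another expressed row. Adamts16, which the filter left out of the test, had 0 counts in the 6 WT libraries, where a count of 0 allows up to 0.127 CPM, and 1 to 63 counts in KO (0.0360 to 2.02 CPM), and it was named after its values were seen. Among 8 ADAM proteases, which shed membrane proteins, 5 were higher and 3 were not called (median 0.46). Adam9 rose from 72.5 ± 5.35 to 137 ± 7.01 CPM (log2 0.92, adjusted p = 1.07e-09, edgeR's quasi-likelihood test). Adam12 rose from 0.899 ± 0.420 to 2.25 ± 1.02 CPM (log2 1.32, adjusted p = 3.47e-03, the same test). Adam17, the TNF-alpha converting enzyme, rose from 45.0 ± 2.76 to 54.5 ± 5.0 CPM (log2 0.28, adjusted p = 1.60e-03, the same test) and overlaps another expressed row.

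Of 12 genes that activate these proteases, 10 were tested, and 4 were higher, 1 was lower and 5 were not called (median 0.27), beside 25.6% of all rows higher and 25.5% lower. The proprotein convertase Pcsk5 rose from 4.51 ± 0.890 to 17.9 ± 3.19 CPM (log2 1.99, adjusted p = 1.26e-08, edgeR's quasi-likelihood test). Its relative Pcsk6 fell from 85.2 ± 11.4 to 59.3 ± 10.3 CPM (log2 -0.52, adjusted p = 1.53e-03, the same test). Bsg, a surface protein known to induce MMPs, rose (log2 0.41, adjusted p = 7.94e-04, the same test), as did Pcsk7 (log2 0.33, adjusted p = 3.31e-04), which overlaps 2 expressed rows. Of 12 other protease inhibitors, 8 were tested, and 4 were higher and 4 were not called (median 0.70). Serpine2, protease nexin, rose from 25.0 ± 2.31 to 42.5 ± 8.95 CPM (log2 0.77, adjusted p = 1.24e-04, the same test). Serpina3n rose from 13.4 to 90.3 CPM (log2 2.76, adjusted p = 9.39e-05, the same test), and as one of a family of near-identical genes it is uncertain.

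In procollagen processing and among the substrates of the proteases, most tested genes rose. Of 9 processing genes, 6 were tested, and 5 were higher and 1 was not called (median 0.76). Among all rows, 25.6% were higher and 25.5% lower. Pcolce rose from 34.1 ± 3.08 to 87.7 ± 17.3 CPM (log2 1.36, adjusted p = 3.44e-07, edgeR's quasi-likelihood test). The C-proteinase Tll1 rose from 0.610 ± 0.234 to 2.79 ± 0.373 CPM (log2 2.18, adjusted p = 1.27e-06, the same test). Adamts3, a close relative of Adamts2 that is also counted among the ADAMTS genes, rose from 4.87 ± 0.707 to 9.78 ± 1.95 CPM (log2 1.01, adjusted p = 1.16e-05, the same test). Of 12 matrix proteins, 11 were tested, and 10 were higher and 1 was not called (median 1.43), against 25.6% higher over all rows. Col1a2 rose from 161 ± 21.8 to 623 ± 211 CPM (log2 1.96, adjusted p = 1.37e-05, the same test). Eln, which encodes elastin, rose from 174 ± 46.1 to 677 ± 199 CPM (log2 1.96, adjusted p = 2.31e-05, the same test). Col4a2, a chain of basement membrane collagen, rose from 503 ± 91.6 to 1166 ± 236 CPM (log2 1.21, adjusted p = 9.12e-06, the same test) and overlaps 2 expressed rows.

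Of 14 cytokines, receptors and signal genes known to act upstream, 9 were tested, and 5 were higher, 1 was lower and 3 were not called (median 0.33). Over all rows, 25.6% were higher and 25.5% lower. Tgfb2 rose from 10.8 ± 1.68 to 40.8 ± 9.05 CPM (log2 1.91, adjusted p = 8.00e-08, edgeR's quasi-likelihood test). Osmr, the oncostatin M receptor, rose from 33.9 ± 3.20 to 63.7 ± 6.13 CPM (log2 0.91, adjusted p = 3.04e-08, the same test). Tgfb3 rose as well (log2 0.90, adjusted p = 3.75e-05, the same test), with an overlapping expressed row. Il11ra1 was lower (log2 -0.73, adjusted p = 1.87e-02, the same test), but near-identical copies and 2 overlapping rows leave it uncertain. The inducers Il6 and Tnf were under 1 CPM in each library and were not tested. Il6 ran from 0 to 0.0723 CPM in WT and from 0.108 to 0.750 CPM in KO, on at most 20 counts a library. Tnf ran from 0 to 0.211 CPM in WT and from 0.0321 to 0.464 CPM in KO, on at most 14 counts.

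**Figure D4:**
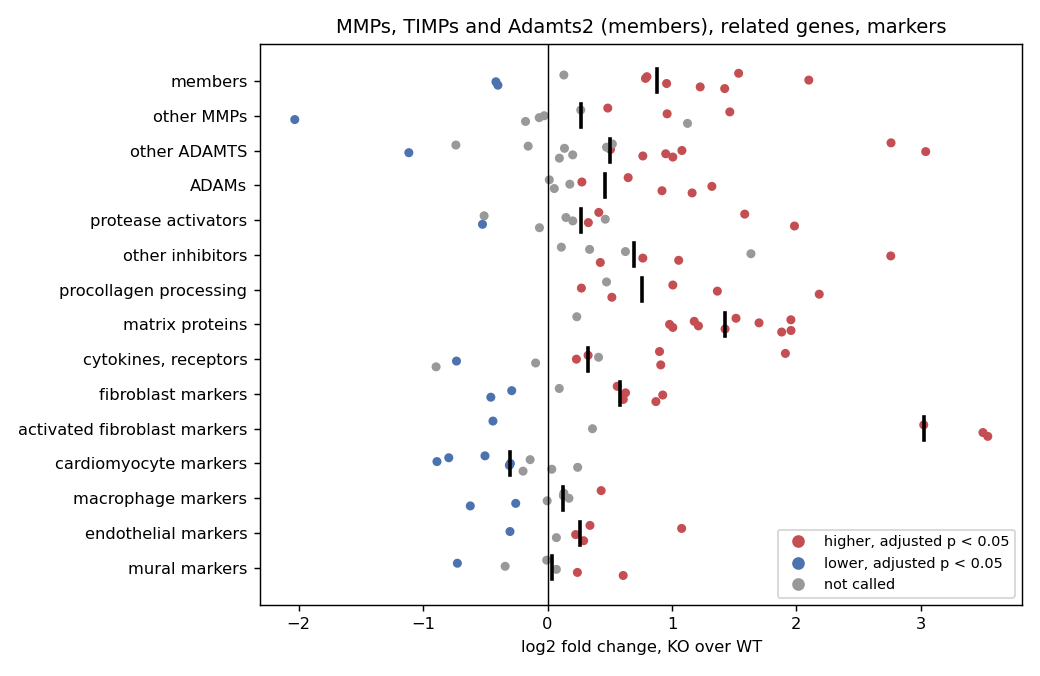
Log2 fold change of KO over WT for each tested gene of the set, of the related groups and of cell type marker lists (points: red higher, blue lower, grey not called at an adjusted p of 0.05; black line: median of the group). Matrix proteins have a median of 1.43 and activated fibroblast markers one of 3.02, while cardiomyocyte markers lie at -0.30.

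Markers of cell types were counted in the same fit, beside the 25.6% of rows higher and 25.5% lower, and their part in the changes of these genes was not tested. Of 8 fibroblast markers 5 were higher, 2 were lower and 1 was not called (median 0.58), and their summed level was 2465 to 3163 CPM in WT and 2941 to 3515 CPM in KO. The largest parts of this sum moved in opposite directions. Gsn had a mean of 1719 CPM in WT and 1408 CPM in KO, and Dcn one of 838 and 1295 CPM. Of 5 activated fibroblast markers 3 were higher, 1 was lower and 1 was not called (median 3.02), and their sum, 130 to 189 CPM in WT, was 362 to 819 CPM in KO, lowest in KO6. The markers that rose were Postn, from 44.3 ± 6.88 to 515 ± 150 CPM (log2 3.54, adjusted p = 5.57e-08), Tnc (log2 3.02, adjusted p = 1.24e-06) and Cthrc1 (log2 3.50, adjusted p = 1.39e-04), by edgeR's quasi-likelihood test. Acta2 fell from 104 ± 21.2 to 76.8 ± 14.4 CPM (log2 -0.44, adjusted p = 0.0272, the same test), and Fap stood at 6.13 ± 1.35 and 7.88 ± 2.11 CPM (adjusted p = 0.119).

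Of 6 endothelial markers 4 were higher, 1 was lower and 1 was not called (summed level 1200 to 1347 CPM in WT and 1428 to 1660 CPM in KO). Mural cell markers gave 2 higher, 1 lower and 3 not called of 6 (1570 to 1749 and 1490 to 1970 CPM), and macrophage markers gave 1 higher, 2 lower and 4 not called of 7 tested (241 to 337 and 244 to 383 CPM). The 4 tested neutrophil markers were not called (adjusted p = 0.132 to 0.402, edgeR's quasi-likelihood test), and their sum was 4.49 to 16 CPM in WT and 6.16 to 19.2 CPM in KO. Of 9 cardiomyocyte markers 5 were lower and 4 were not called (median -0.30, summed level 52604 to 57404 and 42733 to 58539 CPM). The top of the KO range was KO3, and the next highest KO library, KO2, stood at 47579 CPM, below all WT libraries. Of skeletal muscle markers, 2 of 6 were tested and 1, Acta1, was higher. The summed level of the 6 was 81.9 to 275 CPM in WT and 620 to 1922 CPM in KO. Nearly all of this sum was Acta1, at 81.0 to 268 CPM in WT and 620 to 1921 CPM in KO. No marker of these lists was at 0 counts in all 12 libraries.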

How the data were processed

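Poly-A RNA of ventricle was measured in 6 WT and 6 KO libraries, grouped by their titles. The authors aligned reads (the submitters' processing notes name HISAT2 2.0.5 and mm10) and deposited raw read counts per gene from HTSeq. They also deposited FPKM per library. The row identifiers are those of the C57BL/6NJ assembly, and coordinates are printed as the table gives them. The strand setting is not given in the sources used here. The table also holds the authors' fold changes, p-values and group means, which were not used.

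Counts were tested in R 4.3.3 with edgeR 4.0.16 (filterByExpr, TMM scaling, robust quasi-likelihood test, no covariate), on 17155 of 43686 rows, of which 27883 had at least 1 count. Benjamini-Hochberg adjustment ran over all rows tested. CPM are TMM-scaled. Thresholds were an adjusted p of 0.05, and 0.005 with an absolute log2 fold change above 1, as in the study. Intervals are 95% intervals of the log2 fold change from its SE and the t quantile of the fit. The script was tested on simulated data. Replicates of a group had a chi-square per degree of freedom of 7.47 to 54.6 between them, and each was kept as its own library. The labels number the libraries without naming animals, so p-values measure the spread between these libraries. The largest row took 6.66% to 9.17% of the counts of a library, and values under 1 CPM rest on few counts. Medians, CPM sums and FPKM orders are descriptions with no test.

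Alternatives were other scalings (DESeq2 1.42.0 size factors, library size, upper quartile), DESeq2, limma-voom (limma 3.58.1), other filters, no robust dispersions, a replicate block, the row of largest share left out, each library left out, and other length scalings for TIMP shares.

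The genes of the set and the lists were chosen with earlier results of these data known. All 10 genes of the set are named, and, from each related list, up to 3 genes per direction with the smallest p among those called and a mean of at least 1 CPM. A gene that this rule names is not reported here. Mmp9, Mmp13, Adamts16, Il6, Tnf, Gsn, Dcn, the activated fibroblast markers, Acta1, the myosins and the overlapping genes were named after their values were seen. Promoter windows of 250 bases came from RefSeq (GRCm38.p6), where 9 of the 10 genes matched by symbol.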

Additional observations from a re-analysis of the deposited data

Results flagged for a closer look

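Among groups of 6 libraries, 5 of the 74 gene and group pairs held a library whose gap to its neighbour passed Dixon's 95% critical value, where chance gives about 3.70. In the set these were Mmp3 in KO6, at 25.4 CPM against 8.25 to 13.1 CPM in the other KO libraries, and Adamts2 in WT6, at 55.7 CPM against 37.9 to 42.2 CPM in the other WT libraries. Among related genes, Adamts6 stood at 5.04 CPM in WT6 against 3.64 to 4.09 CPM, Adam12 at 4.19 CPM in KO4 against 1.46 to 2.44 CPM, and Bsg at 1070 CPM in WT6 against 1200 to 1260 CPM. WT6 thus held 3 of the 5 values, and it was also the WT library with the least Sdhaf4.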

How the results depend on the processing

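Of 220 alternative values for the 10 genes, 219 kept their direction and their side of the threshold, as did all 594 for the other named genes. The exception was Mmp11 without WT replicate 2 (log2 -0.33, adjusted p = 0.0571), so genes of the set lower in KO numbered 1 to 2 when each library was left out, and 7 were higher under each alternative. Timp4 was not called under any of its 22 alternatives (log2 0.02 to 0.24, adjusted p = 0.29 to 0.943). Genes past the stricter rule numbered 3 to 5. Rows called higher and lower were 4391 and 4376, 4843 and 4779 with DESeq2, and 4087 to 4401 and 4162 to 4602 when each library was left out. Same-numbered WT and KO libraries did not deviate together (r of -0.162 to 0.0243 over 6 pairs, 0 above 0.1, and 1 best matched to its own number), so the numbers do not pair them. With the replicate block 4123 rows were higher and 4110 lower, 7 and 2 genes of the set were, 3 passed the stricter rule, and Mmp2 and Mmp3 had adjusted p = 3.54e-03 and 1.02e-02.

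TIMP shares moved with the scale. On CPM in place of FPKM, the WT and KO shares were 0.319% and 0.837% for Timp1, 21.8% and 23.0% for Timp2, 60.2% and 63.9% for Timp3, and 17.7% and 12.2% for Timp4. By the table's length column, a scale chosen after seeing the data, they were 1.57% and 4.0%, 28.8% and 29.4%, 55.7% and 57.3%, and 13.96% and 9.34% for Timp1, Timp2, Timp3 and Timp4. Timp1 in WT and the related genes under 1 CPM rest on few counts.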
